A study of Danio rerio with 12 samples.

Results

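Zebrafish embryos injected with a morpholino against the glucocorticoid receptor (GR) were compared with embryos injected with a mispair control oligonucleotide at 36 hours post fertilization (hpf). The comparison took the 6 arrays whose titles name that stage, 3 MO and 3 MP, out of 12 arrays in the series. Each array held RNA from a pool of 25 whole embryos, which had received 4.4 ng of oligonucleotide in 1 nl at the one-cell stage, and the remaining 6 arrays held the same treatments at 24 hpf. The labels do not say whether pools came from separate clutches, so p-values measure the spread between these pools only. All embryos were injected, and no uninjected group was measured, so responses common to both injections are not visible here. A morpholino reaches every tissue of the embryo, and only 1 morpholino was used.

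GR is a nuclear receptor that binds cortisol and then switches genes on or off. Before the embryo makes its own cortisol, maternally deposited hormone and receptor serve this role. A translation-blocking morpholino binds the start of an mRNA and keeps ribosomes from initiating, without removing the mRNA. By 36 hpf the zebrafish body axis is nearly complete, the lens is filling with crystallin, fast and slow muscle fibers contract, neurons extend axons and pigment cells darken. The comparison therefore reads many tissues at once, and in such pools fewer cells of a type and less RNA per cell cannot be told apart.

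The antisense oligonucleotide is shown because it defines the MO embryos, beside the stretch it pairs with. Capitals mark the start codon ATG in that stretch and its complement in the oligonucleotide.
morpholino, 5′ to 3′: ctccagtcctccttgatcCATtttg
complement, 5′ to 3′: caaaATGgatcaaggaggactggag
The sample labels print this sequence for the mispair control as well, whereas the study's methods give the control another one, which means that the oligonucleotide given to controls is not known here. Because translation is the target, the mRNA of nr3c1, the gene of GR, is no check of the labels. Its log2 normalized expression was -0.29, -0.083 and -0.24 on the MO arrays, against -0.29, -0.21 and -0.20 on the MP arrays. The groups overlapped, with a change of 0.024 (SE 0.19, adjusted p = 0.955) on the log2 scale.

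Values are given as log2 normalized expression, in which 0 is the median of the probes used to scale an array and 1 unit is a 2-fold difference. A log2 change is the mean of the MO arrays minus the mean of the MP arrays, with its standard error (SE). Directions follow the sample labels and run opposite to those the study gives for its own array fold changes at both stages and for its quantitative PCR at the later stage. Which direction is right cannot be told from the arrays, so MO and MP stand for the labels throughout. A gene is called higher or lower in MO where the adjusted p of limma is below 0.05. If none of the MO arrays showed a probe well above its background, the text gives only a bound, from the mean of the MP arrays over the lowest signals measurable on the MO arrays.

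Of 10915 named genes on the array, 9888 were bright enough to be tested, and 632 of them were called (6.39%). In MO, 188 genes were higher (1.90%) and 444 were lower (4.49%). The 3 MO values lay wholly above or below the 3 MP values for 2897 genes (29.3%). Over all genes tested the median log2 change was 0.028, and among the called genes the median size of the change was 1.54. The genes of any list below are read against these shares. Of the 632 genes, 483 are not named in the text of the study or the tables printed in it. The study's supplementary lists of changed genes are longer, and genes of the 483 may stand in them.

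The arrays differed in brightness along with the treatment. The median probe intensity was 105, 35.5 and 80.4 on the MO arrays, against 171, 83.9 and 147 on the MP arrays, and 65.9 to 70.7% of probes were well above background on the MO arrays, against 72.8 to 80.4% on the MP arrays. Relative to the spike-in control spots, RNA added in a fixed amount during labeling, the scaling probes stood at log2 values of -1.13, -3.31 and -2.10 on the MO arrays, against 0.033, -2.03 and -0.78 on the MP arrays. Scaling to those spots moved the median change over all genes by -1.25, and it left 129 genes lower and 0 higher (limma, with 1078 genes at an unadjusted p under 0.05). Every rise below is therefore relative to the bulk of the probes. The array lowest against the spots was MO replicate 2 (-3.31), and scaling to the spots was not run without it. How far the sign turns given below under that scaling rest on this array was not tested. On the slide shared by MO replicate 1 and MP replicate 2 the MO array stood higher (-1.13 against -2.03). The part of brightness in the results was not tested.

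MO replicate 2 stood apart. It was the dimmest array, its correlation with the MP arrays was 0.910 to 0.926, against 0.954 to 0.976 for the remaining MO arrays, and it lay at -76.4 on the first principal component (58.2% of the variance), with the remaining MO arrays at -6.31 and -22.6 and the MP arrays at 31.1 to 42.2. Without it 1129 of 9870 genes were called (11.4%), 472 higher (4.78%) and 657 lower (6.66%), and 627 of the 632 genes kept their call. Without MO replicate 1 the count was 636, of which 473 were among the 632, without MO replicate 3 it was 78, and without MP replicates 1, 2 and 3 it was 54, 18 and 94. None of the 632 changes turned its sign under any of these omissions. Where the MO and MP values of a gene do not overlap, omitting 1 array cannot turn the sign, so this is not read as support. Each slide held 1 MO and 1 MP array, and with the slide as a block 155 genes were called (1.57%), of which 152 were among the 632. Of the 153 called genes named below, 65 passed under that block and 88 did not, and the numbers are given with each tissue. Within the slides the deviations of the arrays from their group means correlated at -0.214, -0.131 and -0.238. A call lost under the block is not read as an effect of the slide, and the cause of the losses was not tested.

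**Figure D1:**
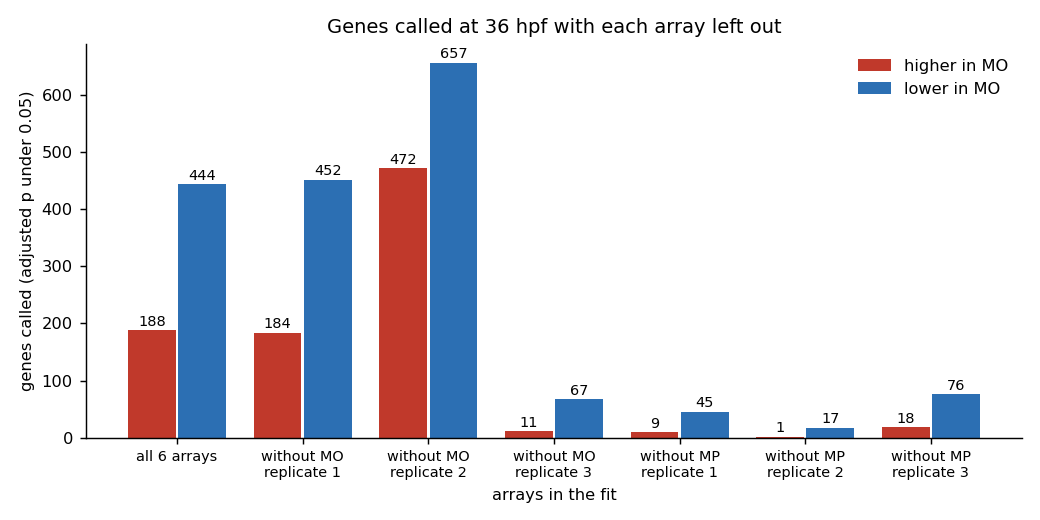
Number of genes called higher (red) or lower (blue) in MO at an adjusted p under 0.05, with all 6 arrays and with each array left out of the fit. The count rose to 472 higher and 657 lower without MO replicate 2 and fell to 1 higher and 17 lower without MP replicate 2.

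There were 17 genes that passed with each array left out in turn, and all 17 were lower in MO. Most are known as genes of the lens or of striated muscle, and the 15 largest are named under their tissues below. The set is bounded by the fit without MP replicate 2, which called 1 gene higher and 17 lower. The probes of asb10, crygm2d11, lim2.5 and opn1lw2 were not well above background on any MO array. Their passes rest on MO values near background and are not read as support. The same holds for any gene below that is given only as a bound. All calls were compared across 57 lists of genes for tissues and pathways, which together covered 2340 of the tested genes and 307 of the called ones. In 8 of the lists no gene was called. A list median nearer to 0 than 0.2 is not read as a direction, since 14 of the 20 such medians turned their sign under at least 1 of the alternatives other than spike-in scaling. Of the remaining 37 medians 6 did so.

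**Figure D2:**
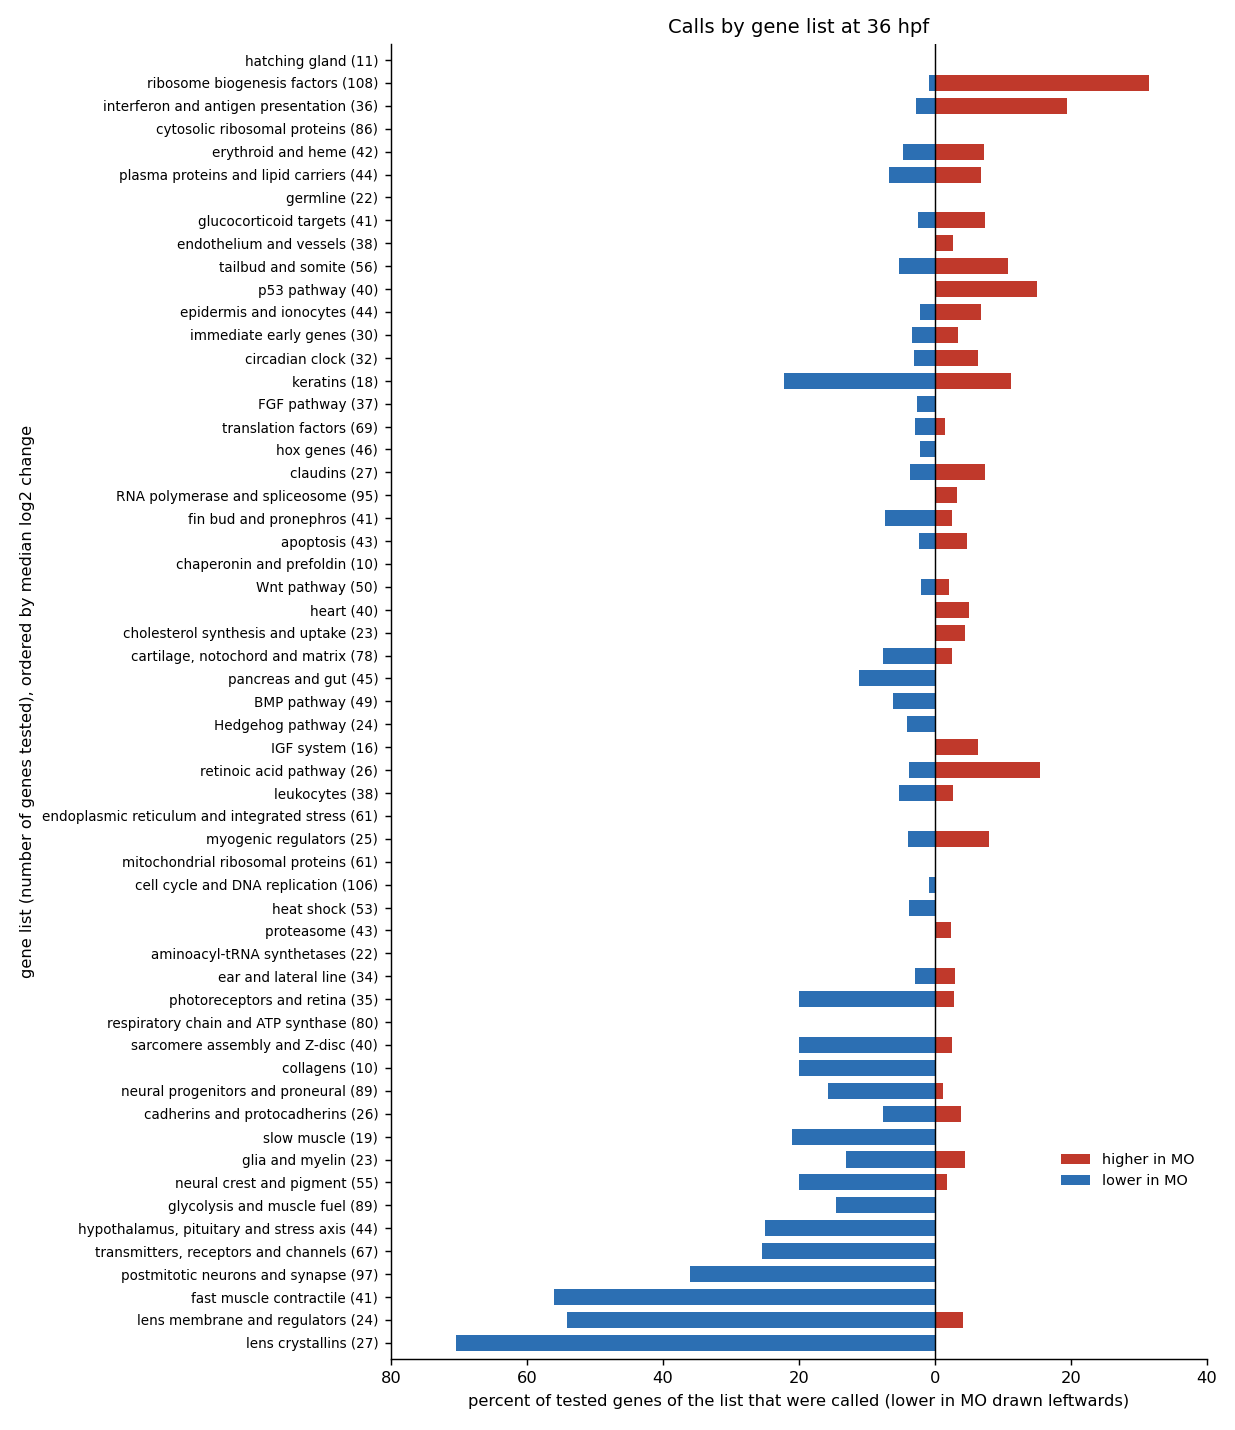
Percent of the tested genes of each list that were called, with genes lower in MO drawn to the left (blue) and genes higher in MO to the right (red), and the number tested in brackets. Lists run from the highest median log2 change at the top to the lowest at the bottom, where crystallins (19 of 27 lower) and fast muscle genes (23 of 41 lower) stand, while ribosome biogenesis factors had 34 of 108 higher.

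Of the 57 lists the lens crystallins had the lowest median change. Crystallins are the soluble proteins that fill lens fiber cells and give the lens its transparency. Of 33 crystallin genes on the array 27 were tested, and 19 were lower in MO and 0 higher, with a median log2 change of -3.88. Without MO replicate 2 the count was 20 and the median -2.95, and after normexp background correction, which models the background in place of the scanner software's subtraction, the median was -2.55. Within the slides the median differences were -2.73, -5.15 and -2.98. Expression of crygm2f, a gamma M crystallin, was -4.61, -7.42 and -4.26 on the MO arrays, against 0.73, 0.69 and 0.13 on the MP arrays. MO replicate 2 was the lowest, and the groups lay more than 4 units apart. The log2 change was -5.95 (SE 0.76, adjusted p = 0.00938), or -4.95 without that array. For crygm2d18 the values were 0.51, -1.75 and -0.052 on the MO arrays, against 4.98, 5.57 and 4.36 on the MP arrays. This gene was well above background on every array, so its change of -5.40 (SE 0.56, adjusted p = 0.00567), 42.1-fold lower, was measured on both sides. For crygm2d13 the change was -5.62 (SE 0.44, adjusted p = 0.0034) and for crygm2b -5.57 (SE 0.40, adjusted p = 0.00249). The probe of crygm2d13 was well above background on 1 of 3 MO arrays and those of crygm2f and cryaa on 2 of 3, so the size of these falls is uncertain. The falls of crygmxl2 (-4.48), the chaperone-like alpha crystallin cryaa (-4.53) and cryba1l2 (-2.61) were of the same direction. Expression of crygm2d11 was at least 5.68-fold lower and that of crybb1l3 at least 8.18-fold lower, as both probes stayed too near background on all MO arrays. Gamma M crystallin genes are close copies of each other, and a probe may also bind transcripts of related genes.

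Of 24 tested genes of the lens fiber membrane, cytoskeleton and regulators 13 were lower, like the crystallins, and 1 was higher (median log2 change -1.91). The gene that was higher, mafbb, changed by 2.88 and is described with the rises below. That median was -0.79 after normexp background correction and -0.43 over genes well above background on all 6 arrays. The beaded filament gene bfsp2, which builds the cytoskeleton of fiber cells, had values of -3.31, -4.60 and -4.02 on the MO arrays, against -0.016, 0.53 and -0.79 on the MP arrays, a change of -3.88 (SE 0.44, adjusted p = 0.00638). Expression of lim2.5, a lens fiber membrane protein gene, was at least 8.09-fold lower (adjusted p = 0.00519). The change was -4.51 (SE 0.54, adjusted p = 0.00703) for dnase1l1l, a nuclease gene, and -4.18 (SE 0.40, adjusted p = 0.00519) for lctla, whose mammalian relative is a lens membrane protein. On the MO arrays dnase1l1l was well above background on 1 of 3 and lctla on 2 of 3. The probes of lctla agreed in direction, with changes of -4.59 to -1.78. Of the 13 lens genes named as lower in this and the preceding paragraph, 13 passed without any single MO replicate or MP replicate 3. Without MP replicate 1 the number was 11, and without MP replicate 2 it was 6, where the highest adjusted p was 0.0718. All 13 passed with the slide as a block.

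As a list, genes of photoreceptors and retina shifted less than lens genes, 7 of 35 lower and 1 higher, with a median of -0.14 (0.012 after normexp background correction). In whole-embryo pools photoreceptor transcripts of the retina and of the pineal organ cannot be told apart. Expression of atoh7, the proneural factor of the first retinal ganglion cells, was -4.89, -2.62 and -5.51 on the MO arrays, against 0.59, 1.47 and 0.12 on the MP arrays. MO replicate 2 was here the highest of the MO arrays, and the change was -5.07 (SE 0.72, adjusted p = 0.0125) with it and -5.93 (adjusted p = 0.000466) without it. The red cone opsin gene opn1lw2 was at least 7.31-fold lower (adjusted p = 0.00519), while the cone arrestin gene arr3a and the transducin gene gngt1 changed by -2.97 (SE 0.53, adjusted p = 0.0242) and -2.12 (SE 0.48, adjusted p = 0.0437). Apart from opn1lw2, which has only the bound, these genes were well above background on 2 of 3 MO arrays. Under the slide block atoh7 and opn1lw2 kept their calls. Only opn1lw2 passed with each array left out, on MO values near background. For the remaining genes of this paragraph the adjusted p ran up to 0.162 without MP replicate 1, 0.157 without MP replicate 3 and 0.0718 without MP replicate 2. It ran up to 0.0621 and 0.1 without MO replicates 1 and 3.

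**Figure D3:**
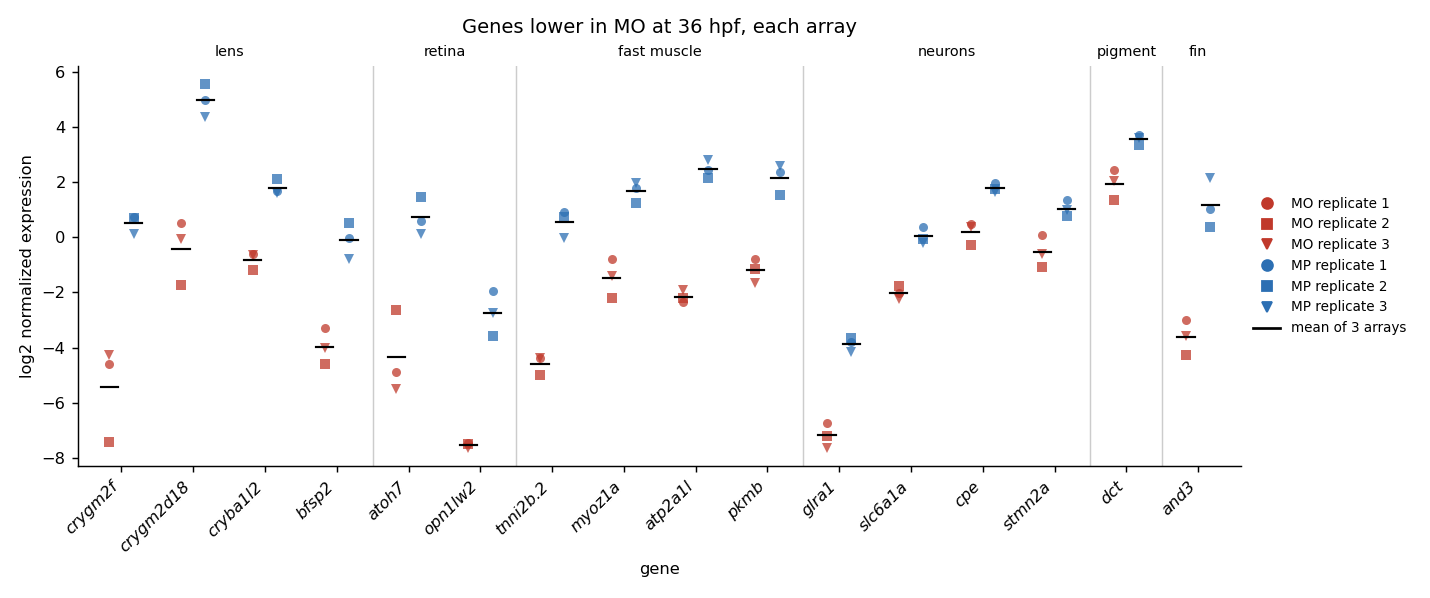
Log2 normalized expression of 16 genes that were lower in MO, on each MO array (red, left of each pair) and each MP array (blue, right), with replicates as different symbols and the mean of 3 arrays as a bar. For every gene the 3 red points lie below the 3 blue points, and the probes of opn1lw2 and glra1 were not well above background on the MO arrays.

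Fast muscle was the second tissue of the falls. The contractile apparatus of fast fibers uses its own troponins, myosins and calcium pump, which accumulate as fibers mature. Of 42 such genes on the array 41 were tested, 23 were lower and 0 higher (median -1.57), and 30 were lower without MO replicate 2 (median -1.21). The median differences within the slides were -0.92, -2.25 and -1.63. Expression of the troponin I gene tnni2b.2 was -4.36, -5.01 and -4.36 on the MO arrays, against 0.92, 0.73 and -0.017 on the MP arrays. The MO arrays lay close together, with replicate 2 lowest, and the change was -5.12 (SE 0.33, adjusted p = 0.00173), 34.8-fold lower. The calcium pump gene atp2a1l had values of -2.34, -2.20 and -1.92 on the MO arrays, against 2.46, 2.15 and 2.80 on the MP arrays, with no overlap and little spread in either group. Its change of -4.62 (SE 0.24, adjusted p = 0.000545) carried the smallest adjusted p of all genes, and its probes gave -4.62 and -2.27. The calsequestrin gene casq1b, for calcium storage, and the Z-disc genes myoz1a and myoz1b changed by -2.27 (SE 0.43, adjusted p = 0.0277), -3.14 (SE 0.37, adjusted p = 0.00703) and -2.45 (SE 0.43, adjusted p = 0.0234).

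Slow muscle genes and those of the wider sarcomere were called less often than fast muscle genes. In the slow muscle list 4 of 19 genes were lower and 0 higher (median -0.33, or -0.10 after normexp background correction). The changes were -1.73 in ldb3a, -1.72 in ldb3b, -0.89 in the myosin-binding protein C gene mybpc3 and -1.53 in the M-band gene myom1a. Of the lists used, mybpc3 stands in that of slow muscle and not in that of heart. Whether skeletal or heart muscle carried its fall cannot be told in whole-embryo pools. The slow myosin gene smyhc1, a muscle marker, averaged 3.99 in MO and 3.81 in MP. These 4 calls are therefore not read as a fall of slow fibers. Among sarcomere assembly and Z-disc genes, a list that also holds ldb3a, ldb3b and myom1a, 8 of 40 were lower and 1 higher. Of the slow muscle calls only that of mybpc3 is not counted again there. The ankyrin repeat gene ankrd1b, a stress-responsive partner of titin, had values of -3.56, -4.98 and -4.69 on the MO arrays, against 0.52, 0.11 and 0.66 on the MP arrays. All 3 MO arrays were at least 3.5 units below the MP arrays, a change of -4.83 (SE 0.39, adjusted p = 0.0034). The caveolar gene cavin4a fell by 2.31 and the myosin chaperone gene smyd1a by 2.16. The actin-binding gene xirp1 was higher (log2 change 1.25, adjusted p = 0.0351), a change that was -0.0015 under scaling to the spike-in spots. Among 25 myogenic regulators 2 were higher, tbx6 and myog described below, and 1 lower, lbx1a, a factor of migrating muscle precursors, with -1.38 (SE 0.22, adjusted p = 0.0171). In addition asb10 was at least 4.18-fold lower and dhrs7cb, whose mammalian relative is a muscle enzyme of the sarcoplasmic reticulum, changed by -2.80 (SE 0.28, adjusted p = 0.00567). Of the 16 called muscle genes named in this and the preceding paragraph, 16 passed without MO replicate 2, 15 without MO replicate 1 and 6 without MO replicate 3. Without MP replicates 1, 2 and 3 the numbers were 6, 5 and 6, with adjusted p up to 0.173. The slide block left 10 of the 16.

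Enzymes of glycolysis and muscle fuel use, which supply contracting fibers with ATP, were lower in 13 of 89 tested genes and higher in 0 (median -0.42). The pyruvate kinase gene pkmb, for the last step of glycolysis, had values of -0.77, -1.16 and -1.67 on the MO arrays, against 2.37, 1.54 and 2.58 on the MP arrays. The MP arrays were all above 1.5 and the MO arrays all below 0, a change of -3.37 (SE 0.34, adjusted p = 0.00567), and pkmb passed with each array left out. The phosphofructokinase gene pfkmb changed by -2.24 (SE 0.30, adjusted p = 0.0111), the glucose phosphate isomerase gene gpib by -1.50 and acadl, a mitochondrial fatty acid dehydrogenase gene, by -1.49. For these last 3 genes the adjusted p without MO replicate 3 ran up to 0.108, and without MP replicates 1, 2 and 3 up to 0.144, 0.115 and 0.137. None of 80 genes of the respiratory chain and ATP synthase was called (limma, 0 at an unadjusted p under 0.05). Of these 80 genes 67 were below 0 in log2 change, and the median was -0.21. Without MO replicate 2 that median was -0.11. Of the 4 fuel genes, pkmb and pfkmb passed under the slide block.

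Neuronal genes fell broadly, by smaller steps than lens or fast muscle genes. Of 97 genes of postmitotic neurons and the synapse 35 were lower and 0 higher, with 86 below 0 in log2 change and a median of -0.81. The number lower was 47 without MO replicate 2 (median -0.81), and the median differences within the slides were -0.89, -0.95 and -0.75. Carboxypeptidase E (cpe), which trims neuropeptide precursors, had values of 0.48, -0.27 and 0.36 on the MO arrays, against 1.97, 1.74 and 1.66 on the MP arrays, with a change of -1.60 (SE 0.24, adjusted p = 0.0154). The growth cone gene stmn2a, with values of 0.076, -1.06 and -0.60 on the MO arrays, against 1.35, 0.79 and 0.98 on the MP arrays, changed by -1.57 (SE 0.32, adjusted p = 0.0318). For the synaptic vesicle fusion gene cplx2a and the reticulon gene rtn1b the log2 changes were -1.36 (adjusted p = 0.0412) and -1.47 (adjusted p = 0.035), and in all 4 the groups did not overlap.

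Genes of transmitter transport, receptors and channels were lower in 17 of 67 and higher in 0 (median -0.78, but -0.026 after normexp background correction). The GABA transporter gene slc6a1a had values of -2.04, -1.77 and -2.24 on the MO arrays, against 0.36, -0.05 and -0.20 on the MP arrays. Every MO array was at least 1.5 units below every MP array, with a change of -2.05 (SE 0.25, adjusted p = 0.00751) on the probe used, while its other probe disagreed at 0.47. The glycine receptor gene glra1 was at least 3.38-fold lower (adjusted p = 0.00567), while glra4a changed by -2.12 (SE 0.38, adjusted p = 0.0241). The activity-induced transcription factor gene npas4a, from the immediate early genes, was at least 1.67-fold lower, although its other probe gave a change of 1.12 and normexp background correction one of 0.20. That list held 30 tested genes with 1 higher and 1 lower. Of the 8 neuronal genes named here and in the preceding paragraph, 8 passed without MO replicate 2, 7 without MO replicate 1, 2 without MO replicate 3 and 0 without MP replicate 2 (limma adjusted p 0.0528 to 0.147). The numbers were 2 and 2 without MP replicates 1 and 3 (adjusted p up to 0.145 and 0.118). Only glra1 and slc6a1a passed under the slide block (limma adjusted p up to 0.0912).

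Neural progenitor and proneural genes fell in 14 of 89 cases and rose in 1 (median -0.32). The zinc finger genes insm1a and insm1b, which act as progenitors leave the cell cycle, both fell, with values for insm1b of 1.61, 1.89 and 1.44 on the MO arrays, against 3.57, 2.87 and 3.04 on the MP arrays, with changes of -1.49 (SE 0.20, adjusted p = 0.0107) and -1.51 (SE 0.23, adjusted p = 0.0158). The radial glia gene fabp7a changed by -2.18 (SE 0.50, adjusted p = 0.0442), and MO replicate 2 was its lowest array by more than 1 unit. In glia and myelin 3 of 23 were lower and 1 higher. The glutamate transporter gene slc1a2b and the myelin gene plp1a changed by -1.52 and -1.07, whereas glula, glutamine synthetase, was higher by 1.29. The inhibitor of differentiation gene id4 changed by -1.59. The list of cell cycle and DNA replication, which marks dividing cells of all kinds, had 0 of 106 genes higher and 1 lower (median 0.062). The gene that was lower, the microtubule regulator stmn1b, changed by -1.30. In the Hedgehog pathway list the Dispatched family gene disp2 was at least 2.31-fold lower (its change was 0.071 after normexp background correction) and no other of 24 genes was called. All 9 genes passed without MO replicates 1 or 2, and 0, 0, 0 and 1 passed without MO replicate 3 and MP replicates 1, 2 and 3 (limma adjusted p up to 0.104, 0.159, 0.158 and 0.119). The slide block left insm1a, insm1b and slc1a2b.

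The hypothalamus, pituitary and stress axis, in which cortisol feeds back through GR on its own release, had 11 of 44 genes lower and 0 higher (median -0.49). That median turned to 0.14 after normexp background correction, and it was -0.16 with the floor set after scaling and -0.078 over genes well above background on all 6 arrays. The enzyme gene hsd11b2, which inactivates cortisol, had values of -2.44, -3.48 and -3.33 on the MO arrays, against -0.97, -0.82 and -1.80 on the MP arrays. The groups did not overlap, and the change was -1.88 (SE 0.38, adjusted p = 0.0329). The neuropeptide gene cart2 changed by -2.28 (SE 0.36, adjusted p = 0.0173) with 1 of 3 MO arrays well above background, the stanniocalcin gene stc1l, of calcium balance, by -2.83 (SE 0.66, adjusted p = 0.0467), and the opioid precursor gene pdyn was at least 1.44-fold lower, although its change was 0.15 after normexp background correction. Of 41 tested genes known as glucocorticoid targets, mostly from mammals, 4 were called (9.76%, against 6.39% over all genes). Of these, 3 were higher and 1, hsd11b2, was lower, which is not read as a change of the list. The list's median was 0.44 (0.24 without MO replicate 2 and -0.81 under scaling to the spike-in spots). Those that were higher are gadd45aa (1.78), a growth arrest gene, glula (1.29) and nfkbiaa (1.60), an inhibitor of NF-kB. The p53 list also counts gadd45aa, and the lists of neural progenitors and glia also count glula. Expression of nfkbiaa was 0.67, 1.09 and 1.76 on the MO arrays, against -0.81, -0.29 and -0.18 on the MP arrays. In endocrine pancreas and gut 5 of 45 genes were lower and 0 higher, among them the peptide YY gene pyya with -3.26 (SE 0.35, adjusted p = 0.00569) and the pancreas and hindbrain factor gene ptf1a with -2.24 (SE 0.48, adjusted p = 0.0377). These 5 include ptf1a, insm1a and insm1b, which are also counted among the neural progenitor and proneural genes above. With insm1a and insm1b set aside, of the 9 called genes of this paragraph 9 passed without MO replicate 2 and 8 without MO replicate 1. Only pyya passed without MO replicate 3, MP replicate 1 and MP replicate 3, and without MP replicate 2 none did (limma adjusted p 0.0528 to 0.132). Both cart2 and pyya also passed under the slide block.

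Genes of neural crest and pigment formed a further set. Whether pigment cells of the neural crest or the pigmented layer of the eye carried these changes cannot be told in whole-embryo pools. Of 55 genes of neural crest and pigment 11 were lower and 1 higher (median -0.38, or -0.17 after normexp background correction). The melanin enzyme gene dct had values of 2.43, 1.36 and 2.05 on the MO arrays, against 3.70, 3.35 and 3.62 on the MP arrays, and its change was -1.61 (SE 0.28, adjusted p = 0.0228). The melanosome matrix genes pmela and pmelb changed by -1.58 (SE 0.33, adjusted p = 0.0363) and, for pmelb, -2.29 (SE 0.44, adjusted p = 0.0291), and the transcription factor gene tfap2e by -1.45 (SE 0.33, adjusted p = 0.0425). In all 4 genes MO replicate 2 was the lowest array, and without it the changes were -1.32, -1.20, -1.79 and -1.08, each past the threshold. None of the 4 passed without MO replicate 3 (limma adjusted p up to 0.111) or without any of the MP replicates (up to 0.15), and with the slide as a block none did (limma adjusted p 0.0569 to 0.0817).

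Genes of the body surface were called in both directions. Among the lists of this paragraph keratins had the highest share called, beside 6.39% over all genes. The calls among epidermis and ionocyte genes and among claudins are not read as a change of a tissue. Among keratins, the filament proteins of skin, 2 of 18 were higher and 4 lower. Expression of krt92 was 6.38, 8.30 and 6.39 on the MO arrays, against 3.93, 4.23 and 4.88 on the MP arrays. MO replicate 2 was the highest array, and the change was 2.68 (SE 0.52, adjusted p = 0.0293) with it and 2.04 without it. For krt99 the change was 2.63 (SE 0.61, adjusted p = 0.0454), and for krt91 and krt1-19e it was -2.25 (SE 0.34, adjusted p = 0.0156) and -2.88 (SE 0.31, adjusted p = 0.00567). The 3 probes of krt1-19e gave -2.96 to -0.25. Among epidermis and ionocyte genes 3 of 44 were higher and 1 was lower. The epithelial cadherin gene cdh1 and the tight junction gene cldn7b were higher by 0.97 and 0.99 (-0.29 and -0.26 under scaling to the spike-in spots) and the chloride cotransporter gene slc12a3 by 1.55, while the carbonic anhydrase gene ca2 changed by -1.12. Claudins, which seal tight junctions, included 2 of 27 higher, with cldn3d at 1.83, and 1 lower, cldn11a at -3.19 (SE 0.37, adjusted p = 0.00671). Of the 10 genes of this paragraph all passed without MO replicate 1 or 2, 2 passed without MO replicate 3, MP replicate 1 or MP replicate 3, and none passed without MP replicate 2 (limma adjusted p 0.0528 to 0.159). The calls of krt91, krt1-19e and cldn11a also passed under the slide block.

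Genes of skeleton, fin and ear were called in both directions. The share called was 10.3% in cartilage, notochord and matrix, 9.76% in fin bud and pronephros and 5.88% in ear and lateral line. Over all genes it was 6.39%, and the calls in these lists are not read as a change of a tissue. Expression of and3, an actinodin of the fin fold's supporting fibers, was -3.02, -4.27 and -3.59 on the MO arrays, against 1.01, 0.36 and 2.16 on the MP arrays. Its change of -4.80 (SE 0.50, adjusted p = 0.00567) passed with each array left out. The list of cartilage, notochord and matrix had 6 of 78 lower, among them the tenascin gene tnn (-1.97, SE 0.27, adjusted p = 0.0123) and the matrilin gene matn3a (-1.68, SE 0.23, adjusted p = 0.0123), and 2 higher, among them the elastic fiber gene efemp2b (2.85, SE 0.56, adjusted p = 0.0296). In collagens 2 of 10 were lower, with changes of -1.43 in col1a1a and -1.65 in col1a1b. In ear and lateral line 1 of 34 was lower and 1 higher. The tectorin gene tectb, of the otolithic membrane, changed by -3.71 (SE 0.39, adjusted p = 0.00567), well above background on 1 of 3 MO arrays, and the otolith gene oc90 by 1.73 (SE 0.21, adjusted p = 0.00846). Of 46 hox genes only hoxc4a was called, with -0.94, and the list's median was 0.26 (0.038 without MO replicate 2 and -1.0 under scaling to the spike-in spots). In fin bud and pronephros 3 of 41 were lower, including the water channel gene aqp3a (-1.53) and the kidney factor gene lhx1a (-1.87), and the sulfate transporter gene slc26a1 was higher by 1.05 (-0.21 under scaling to the spike-in spots). Of the 12 genes of this paragraph 12 passed without MO replicate 2, 10 without MO replicate 1 and 4 without MO replicate 3. Without MP replicates 1, 2 and 3 the numbers were 2, 1 and 4, with adjusted p up to 0.173. Under the slide block 5 of the 12 passed, and3, tnn, tectb, oc90 and lhx1a.

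The rises were led by other genes. The tailbud holds the progenitors of the trunk and tail, which leave it to form somites while the axis lengthens. Of 56 tailbud and somite genes 6 were higher and 3 lower, with a median of 0.36 (0.19 without MO replicate 2 and -0.90 under scaling to the spike-in spots). The posterior homeobox gene cdx4 had values of -0.73, 1.98 and -0.85 on the MO arrays, against -3.22, -3.92 and -2.68 on the MP arrays. MO replicate 2 was more than 2 units above the remaining MO arrays, and the change was 3.41 (SE 0.73, adjusted p = 0.038) with it and 2.49 (adjusted p = 0.00664) without it. The T-box gene tbx6, of presomitic mesoderm, had values of -0.19, 2.22 and -0.22 on the MO arrays, against -3.36, -3.58 and -4.05 on the MP arrays, again with MO replicate 2 highest, and changes of 4.27 (SE 0.63, adjusted p = 0.0137) with it and 3.46 without it. The segmentation clock gene her7 and the Wnt-responsive gene sp5l changed by 2.89 (SE 0.67, adjusted p = 0.0457) and 2.28 (SE 0.38, adjusted p = 0.0199), with her7 well above background on 2 of 3 MP arrays. The myogenic regulator gene myog changed by 2.83 (SE 0.43, adjusted p = 0.0154), and nkx1.2lb by -2.03 (SE 0.34, adjusted p = 0.0199). The Nodal antagonist gene lft2 had values of -0.29, 1.03 and -0.44 on the MO arrays, against -4.10, -3.30 and -2.91 on the MP arrays. Its change was 3.54 (SE 0.47, adjusted p = 0.0107) and that of lft1 2.78 (SE 0.48, adjusted p = 0.0226). The bZIP factor gene mafbb changed by 2.88 (SE 0.51, adjusted p = 0.0241). It belongs to the list of lens membrane and regulators and not to the tailbud list. All 9 genes passed without MO replicate 2 and 8 without MO replicate 1. Omitting MO replicate 3 left 4, and omitting MP replicates 1, 2 and 3 left 1, 0 and 3 (limma), where the adjusted p ran up to 0.162 without MP replicate 2. The slide block left 6 of the 9, and cdx4, sp5l and mafbb did not (adjusted p up to 0.0549).

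**Figure D4:**
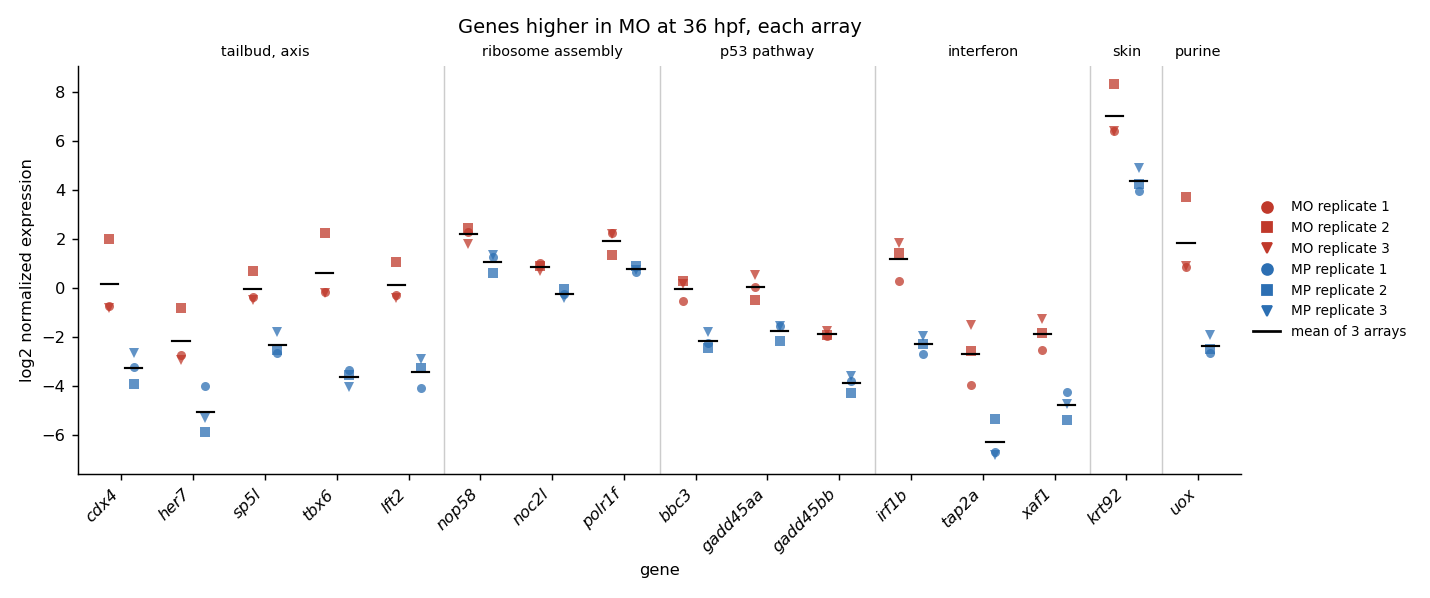
Log2 normalized expression of 16 genes that were higher in MO, on each MO array (red, left of each pair) and each MP array (blue, right), with replicates as different symbols and the mean of 3 arrays as a bar. The 3 red points lie above the 3 blue points for every gene. Under scaling to the spike-in spots the changes of nop58, noc2l and polr1f were -0.14, -0.16 and -0.087.

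Ribosome biogenesis gave the largest number of rises. These factors copy and trim ribosomal RNA in the nucleolus and assemble the subunits, and they are abundant in growing cells. Of 108 tested genes 34 were higher in MO and 1 lower, 105 had a log2 change above 0, and the median was 0.73. The number higher was 80 without MO replicate 2 (median 0.80). The median differences within the slides were 0.84, 0.61 and 0.69, and under scaling to the spike-in spots the median was -0.52. The box C/D snoRNP gene nop58 had values of 2.29, 2.43 and 1.79 on the MO arrays, against 1.23, 0.60 and 1.32 on the MP arrays. The groups did not overlap, and the change was 1.12 (SE 0.27, adjusted p = 0.0484), or -0.14 under spike-in scaling. For noc2l and emg1, of subunit maturation, the changes were 1.1 (SE 0.20, adjusted p = 0.0262) and, for emg1, 1.04 (SE 0.25, adjusted p = 0.0491), whereas under spike-in scaling they were -0.16 and -0.21. The gene that was lower was cebpz (-1.21, SE 0.26, adjusted p = 0.0364), for which the probes disagreed, from -1.21 to 1.15.

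Related machinery moved less. In the list of RNA polymerases and spliceosome 3 of 95 genes were higher and 0 lower. These were polr1b and polr1f, of the polymerase that makes ribosomal RNA, with 0.97 and 1.17 (-0.29 and -0.087 under spike-in scaling), and polr3gla, of the polymerase that makes tRNA, with 1.29. The transcription factor gene mycb, of the Myc family, was higher by 0.83 (-0.42 under spike-in scaling). Of 69 translation factors the initiation gene eif2b3 was higher (0.84, and -0.42 under spike-in scaling) and the elongation genes eef1a2 and eef2l2 were lower by -1.83 (adjusted p = 0.0269) and -2.38 (adjusted p = 0.0158) in log2 change. In 86 cytosolic ribosomal proteins, 61 mitochondrial ones, 22 aminoacyl-tRNA synthetases and 10 chaperonin and prefoldin genes none was called (limma, with 12, 1, 1 and 1 at an unadjusted p under 0.05), with medians of 0.59, 0.073, -0.096 and 0.20. The median of the cytosolic ribosomal proteins was 0.29 without MO replicate 2 and 0.14 after quantile normalization. The probe of eef1a2 was well above background on 2 of 3 MO arrays. The 11 genes named in this and the preceding paragraph all passed without MO replicate 2, and 4 passed without MO replicate 1. None passed without MO replicate 3 or any MP replicate (limma), with adjusted p up to 0.146 without MO replicate 3 and 0.168, 0.164 and 0.17 without MP replicates 1, 2 and 3. With the slide as a block only eef2l2 passed, and the rises of nop58, noc2l and emg1 were among the 10 calls lost (limma adjusted p up to 0.128).

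The p53 pathway halts the cell cycle and triggers cell death after damage, and it is commonly examined in morpholino experiments. Of 40 tested genes 6 were higher in MO and 0 lower (median 0.33, -0.93 under scaling to the spike-in spots), and 13 were higher and 2 lower without MO replicate 2. The pro-apoptotic gene bbc3 had values of -0.56, 0.28 and 0.17 on the MO arrays, against -2.28, -2.47 and -1.80 on the MP arrays. Its change was 2.15 (SE 0.31, adjusted p = 0.0129). Expression of gadd45bb was -1.97, -1.93 and -1.77 on the MO arrays, against -3.82, -4.30 and -3.61 on the MP arrays. The change was 2.02 (SE 0.28, adjusted p = 0.0119), and that of gadd45aa was 1.78 (SE 0.32, adjusted p = 0.025). The initiator caspase gene casp8 changed by 1.61 (SE 0.38, adjusted p = 0.0467). In the apoptosis list 2 of 43 genes were higher and 1 lower. Lower was the inflammatory caspase gene caspb, with values of -1.15, -0.22 and -1.83 on the MO arrays, against 1.71, 1.41 and 1.94 on the MP arrays, with a change of -2.75 (SE 0.39, adjusted p = 0.0126), and the death receptor gene hdr was higher by 1.52. All 6 genes passed without MO replicate 1 or 2, although casp8 only just did so without MO replicate 2 (adjusted p = 0.05 after rounding, below the threshold before it). The numbers passing without MO replicate 3 and MP replicates 1, 2 and 3 were 1, 0, 0 and 2 (limma), with adjusted p up to 0.148, 0.126, 0.151 and 0.14. The slide block left bbc3, gadd45bb and caspb. The part of the p53 pathway in the other changes was not tested.

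Stress lists outside p53 were largely without calls. Among heat shock genes 2 of 53 were lower and 0 higher. Expression of hsc70, an Hsp70 family gene, was -1.70, -3.42 and -2.43 on the MO arrays, against 2.37, 2.5 and 2.24 on the MP arrays, a change of -4.88 (SE 0.40, adjusted p = 0.0034) that passed with each array left out. The small heat shock gene hspb3, well above background on 2 of 3 MO arrays, changed by -2.87 (SE 0.66, adjusted p = 0.0445), which was lost without MO replicate 3 and each MP replicate (adjusted p up to 0.148). None of 61 genes of endoplasmic reticulum and integrated stress was called (limma, 8 at an unadjusted p under 0.05, median 0.086). The proteasome had 1 of 43 genes higher, the immune form psmb13a.

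Interferon and antigen presentation genes mostly rose among those called. Interferons are antiviral signals, and their target genes load peptides on MHC class I molecules. Of 45 genes on the array 36 were tested, 7 were higher and 1 lower (median 0.65, -0.60 under scaling to the spike-in spots). The interferon regulatory factor gene irf1b had values of 0.26, 1.40 and 1.84 on the MO arrays, against -2.69, -2.29 and -1.97 on the MP arrays. MO replicate 3 was the highest, all MO arrays were above all MP arrays, and the change was 3.48 (SE 0.41, adjusted p = 0.00703). The peptide transporter gene tap2a had values of -3.98, -2.58 and -1.51 on the MO arrays, against -6.70, -5.35 and -6.84 on the MP arrays, with a change of 3.61 (SE 0.66, adjusted p = 0.0267), with 2 of 3 MP arrays well above background. For xaf1, an interferon-induced gene, the change was 2.90 (SE 0.43, adjusted p = 0.0137) and for psmb13a 1.99 (SE 0.44, adjusted p = 0.0416). The immune metabolic gene irg1l changed by 3.14 (SE 0.70, adjusted p = 0.0413). Leukocyte genes as a list had 1 of 38 higher and 2 lower (median 0.11). All 5 genes passed without MO replicates 1 or 2. Omitting MO replicate 3 and MP replicates 1, 2 and 3 left 1, 2, 0 and 1 (limma), with adjusted p up to 0.11, 0.13, 0.15 and 0.118. Under the slide block irf1b, xaf1 and irg1l passed.

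In the erythroid and heme list 3 of 42 were higher and 2 lower (median 0.53, -0.74 under scaling to the spike-in spots). The heme enzyme gene urod had values of 2.16, 1.81 and 1.70 on the MO arrays, against 0.56, 0.52 and 1.08 on the MP arrays. Its change was 1.17 (adjusted p = 0.0296, and -0.087 under spike-in scaling) and that of fech, the final enzyme of heme synthesis, 1.42 (SE 0.31, adjusted p = 0.0399), whereas the ankyrin gene ank1a, of the red cell membrane skeleton, changed by -1.59 (SE 0.32, adjusted p = 0.0314). In heart 2 of 40 genes were higher and 0 lower, namely the cardiac myosin light chain gene cmlc1 (1.06, SE 0.20, adjusted p = 0.0274, and -0.20 under spike-in scaling) and the cardiac factor gene nkx2.7 (1.42, SE 0.28, adjusted p = 0.0293). In endothelium and vessels lmo2, a factor of blood and vessel precursors, was higher by 1.26, and no other of 38 genes was called. The share called was 5.0% in heart and 2.63% in endothelium and vessels, below the 6.39% over all genes. The leukocyte list had 3 of 38 genes called (7.89%), near that share. The calls in these lists are not read as a change of a cell type. The myeloperoxidase gene mpx changed by -1.97 (SE 0.45, adjusted p = 0.0445) on its brightest probe, with -1.97 to 0.099 over its 4 probes, the oxidase gene ncf1 by 2.06 (SE 0.39, adjusted p = 0.0274), and the galectin gene lgals9l1 was at least 1.48-fold lower, but its change was 0.13 after normexp background correction. All 9 genes passed without MO replicate 2 and 5 without MO replicate 1. Without MO replicate 3 and MP replicates 1 and 2 none passed (limma adjusted p up to 0.129, 0.163 and 0.158), and 1 did without MP replicate 3. Only lgals9l1 passed under the slide block.

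Plasma protein and lipid carrier genes, made by yolk syncytial layer, liver and gut, were higher in 3 and lower in 3 of 44. The intestinal fatty acid carrier gene fabp2 changed by 2.61 (SE 0.60, adjusted p = 0.0451), with MO replicate 2 at 5.99, and by 1.85 without that array. The lipoprotein genes apoea and apoda.1 changed by -1.69 (SE 0.22, adjusted p = 0.0109) and, for apoda.1, -2.45 (SE 0.48, adjusted p = 0.0294), and hgd, of tyrosine breakdown, by -1.62 (SE 0.24, adjusted p = 0.0142). Outside the lists the urate oxidase gene uox had values of 0.85, 3.71 and 0.89 on the MO arrays, against -2.65, -2.51 and -1.95 on the MP arrays. MO replicate 2 was the highest here too, and the change was 4.18 (SE 0.71, adjusted p = 0.0219) with it and 3.24 without it. The chitinase gene chia.6, the cathepsin gene ctsll and the alkaline phosphatase gene alpi.2 changed by 3.2 (SE 0.54, adjusted p = 0.021), 3.46 (SE 0.54, adjusted p = 0.0161) and 2.87 (SE 0.60, adjusted p = 0.035), the last of them well above background on 2 of 3 MP arrays. In cholesterol synthesis and uptake 1 of 23 genes was higher, the sterol oxidase gene msmo1 with 1.65 (SE 0.33, adjusted p = 0.0314), and 0 were lower. Neither hatching gland (11 tested, median 0.95) nor germline genes (22 tested, median 0.46) included a call (limma, with 6 and 2 at an unadjusted p under 0.05). Without MO replicate 2 the hatching gland median was 0.42, with 1 gene called higher, and the germline median was 0.25. The germline median ran from -0.23 without MP replicate 3 to 1.05 without MP replicate 1. All 9 genes passed without MO replicate 2, 8 without MO replicate 1 and 3 without MO replicate 3. None passed without an MP replicate (limma adjusted p up to 0.149, 0.163 and 0.104 without replicates 1, 2 and 3). Under the slide block 5 of the 9 passed.

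Lists of signaling pathways held few calls. The share called was 6.12% in the BMP pathway, 2.7% in FGF, 4.0% in Wnt and 6.25% in the IGF system, against 6.39% over all genes. It was 19.2% in the retinoic acid pathway, 11.5% in cadherins and protocadherins and 9.38% in the circadian clock. The calls in these lists are not read as a change of a pathway. The BMP pathway, which patterns the body axis, had 0 of 49 higher and 3 lower. Lower were the ligand gene gdf10a (-1.35, SE 0.30, adjusted p = 0.0396) and smad3b (-1.55, SE 0.24, adjusted p = 0.0168), besides id4. The FGF pathway list, drawn by gene symbol, had 1 of 37 lower, fgf13b (-1.26, SE 0.18, adjusted p = 0.0137), and 0 higher. Membership by symbol does not show that fgf13b acts in FGF signaling. In the Wnt pathway sp5l was higher and the ligand gene wnt4b lower (-1.04, SE 0.21, adjusted p = 0.0331) of 50. In the retinoic acid pathway 4 of 26 were higher and 1 lower, and the median of 0.13 is not read as a direction. The retinoid binding protein gene rbp7b had values of 1.78, 1.70 and 1.26 on the MO arrays, against -1.05, -0.60 and 0.22 on the MP arrays. Its change was 2.06 (SE 0.33, adjusted p = 0.0185), and the retinoid dehydrogenase genes dhrs3a, dhrs3b and rdh10b changed by 1.48, 0.81 and 0.82 (0.23, -0.44 and -0.43 under scaling to the spike-in spots). In the IGF system the growth factor gene igf2a was higher (1.19, SE 0.27, adjusted p = 0.042, and -0.063 under spike-in scaling) of 16 tested. Among cadherins and protocadherins 1 of 26 was higher and 2 were lower, pcdh1a4 (-1.52) and pcdh2ac (-1.21). In the circadian clock 2 of 32 were higher and 1 lower. The light-induced cryptochrome gene cry5 and the clock output gene tefa changed by 2.45 (SE 0.53, adjusted p = 0.0378) and, for tefa, 1.71 (SE 0.41, adjusted p = 0.0497), while rorb changed by -1.54 (SE 0.27, adjusted p = 0.0235). Outside the lists the kinase gene camk1gb changed by 2.95 (SE 0.68, adjusted p = 0.0455). Of these genes together with both heat shock genes above, 17 in all, 17 passed without MO replicate 2 and 14 without MO replicate 1. Without MO replicate 3 and MP replicates 1, 2 and 3 the numbers were 1, 1, 1 and 2, with adjusted p up to 0.159, 0.182, 0.163 and 0.159. The slide block left 4 of the 17, hsc70, cry5, tefa and pcdh1a4.

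Small counts above also include genes that the naming rule left out and that are named here after their values were seen. Higher in MO were pde6c of photoreceptors, gart of pigment synthesis, apoeb and c6.2 of plasma proteins and lama1 of matrix, all but apoeb with a change below 0 under scaling to the spike-in spots. Lower were neurod1 of the pancreas list, krt15 and krt1-c5 of the keratins, evx1 and nrarpb of the tailbud, ctss1 of antigen presentation and crabp1b of the retinoic acid pathway.

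Whether a change at 36 hpf differed from that at 24 hpf was tested as the interaction of treatment with time over all 12 arrays. It passed for 163 of 10391 genes (1.57%). Of these, 66 had the higher change at 36 hpf and 97 the lower one. The interferon and antigen presentation genes had a median change of 0.65 at 36 hpf and 1.60 at 24 hpf, and 8 of its 36 genes passed the interaction test. Expression of irf1b averaged 3.41 in MO and -2.76 in MP at 24 hpf, and 1.17 in MO and -2.32 in MP at 36 hpf, so the change was 6.18 at 24 hpf and 3.48 at 36 hpf (difference -2.69, adjusted p = 0.0186). The difference was -2.92 for xaf1 (adjusted p = 0.0138) and -2.31 for nfkbiaa (adjusted p = 0.00993).

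In the lens 5 of 27 crystallins and 6 of 24 membrane and regulator genes passed the interaction test. In muscle 2 of 41 fast muscle genes and 0 of 19 slow muscle genes did, with fast muscle medians of -1.30 at 24 hpf and -1.57 at 36 hpf. Expression of tnni2b.2 averaged -3.90 in MO and -6.46 in MP at 24 hpf, and -4.58 in MO and 0.54 in MP at 36 hpf. The change was 2.56 at 24 hpf and -5.12 at 36 hpf (difference -7.68, adjusted p = 0.000272). For atp2a1l the changes were 0.74 and -4.62 at 24 and 36 hpf (adjusted p of the difference = 0.00777), for lctla 0.54 and -4.18 (0.000543), and for dnase1l1l 1.19 and -4.51 (0.00166). The changes at 24 and 36 hpf were -0.77 and 1.17 for urod (adjusted p of the difference = 0.00365) and -0.51 and 1.42 for fech (0.0127). In the neuron and synapse list 1 of 97 genes differed between the time points, with medians of -0.77 at 24 hpf and -0.81 at 36 hpf. The count of 163 was 1607 without MO replicate 2 at 36 hpf and 61 to 167 with each of the other 11 arrays left out.

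**Figure D5:**
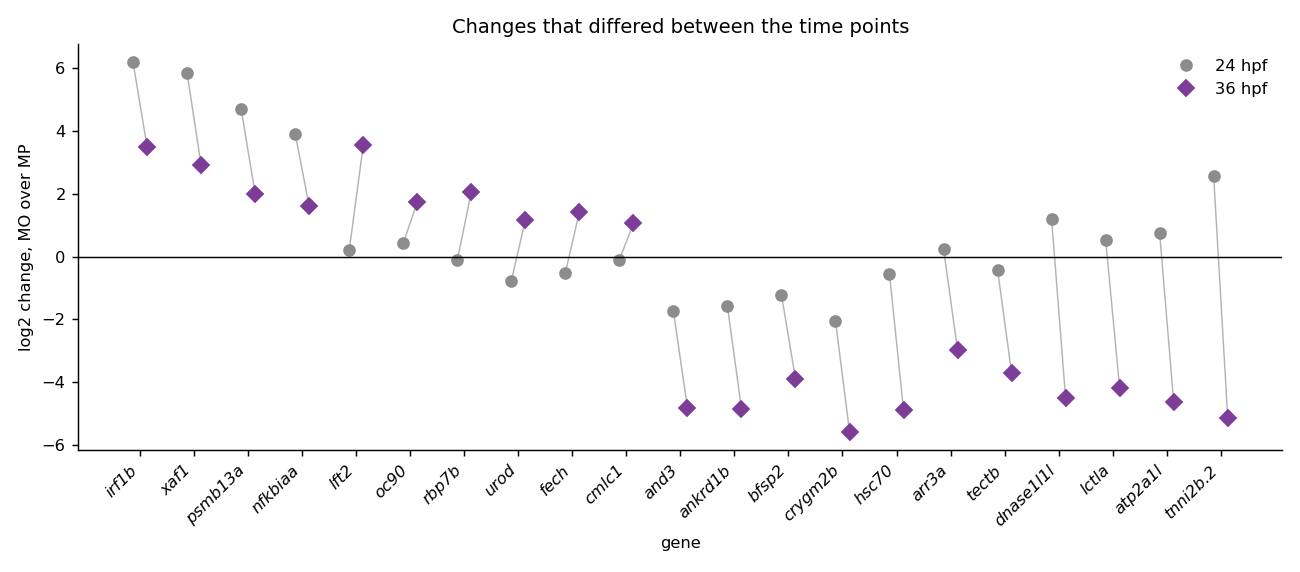
Log2 change of MO over MP at 24 hpf (gray circles) and at 36 hpf (purple diamonds) for 21 genes whose change differed between the time points at an adjusted p under 0.05. From left to right, 4 immune genes were raised at both stages and less so at 36 hpf, and 6 genes were higher at 36 hpf with changes near or below 0.5 at 24 hpf. The last 11 genes, of lens, muscle, sensory organs and fin fold with the Hsp70 family gene hsc70, were lower at 36 hpf.

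The levels at 24 hpf can be set beside those at 36 hpf in MP and in MO. These values share the arrays at 36 hpf with the comparison above, so they are set side by side without a test. No slide held arrays of both stages, so in these values stage cannot be told apart from slide and array brightness. In MP the median change between the stages, 36 hpf minus 24 hpf, was 2.66 for crystallins, 1.27 for fast muscle genes and 0.86 for neuron and synapse genes, while MO minus MP at 36 hpf was -3.88, -1.57 and -0.81. In MO the change between the stages was 1.35, 1.02 and 0.68, so the medians of these lists were above 0 in MO as well. For ribosome biogenesis factors the stage change was -0.56 in MP and -0.12 in MO, beside 0.73 for MO minus MP. For tailbud and somite genes these values were -0.25, -0.52 and 0.36, and for the interferon list 0.19, -1.04 and 0.65. Expression of cdx4 averaged 0.14 in MO and -3.28 in MP at 36 hpf, and 2.31 in MO and -0.60 in MP at 24 hpf. For crygm2d18 the means were -0.43 in MO and 4.97 in MP at 36 hpf, and -4.26 in MO and -0.80 in MP at 24 hpf.

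The pools carried the tissues of a whole embryo. Of 42 defining markers of 17 tissues and cell types, 34 were found by name, and 32 of them were well above background on all 6 arrays. The exceptions were the lens marker cryaa, above background on 2 of 3 MO arrays and 3 of 3 MP arrays, and the vessel marker kdrl, on 1 of 3 MO arrays and 3 of 3 MP arrays.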

How the data were processed

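Total RNA from 12 embryo pools was hybridized to 1-color Agilent arrays, and the scans were read by the Feature Extraction software (version 10.5.1.1). The deposited intensity of a spot is the processed signal after background subtraction and detrending by that software, and the authors also deposited a table of intensities scaled to positive control genes. The software's 0 or 1 flags for spots above background, saturated or outlying were deposited as well. Here intensities below 0.05 were raised to 0.05, arrays were scaled to the median of the 19229 probes that exceeded 50 on every array, and log2 was taken. Of 43603 probes 16770 matched a gene of the RefSeq table for assembly GRCz12tu by accession and 15772 were named. The array was annotated to danRer5, so no coordinates are given. For the 3907 genes with several probes the brightest was used, and genes entered the test if the flags put that probe above background on every array of MO or of MP. Groups were compared with limma 3.58.1 in R 4.3.3, in a fit of the 6 arrays at 36 hpf, or of all 12 for the interaction, with Benjamini-Hochberg adjustment over all genes tested. The scripts were tested on simulated data. The number of arrays limits the precision. Named genes were, in each list, up to 4 called genes of the largest change. Those absent from the study's text and printed tables came before those it names there. Then came the 15 largest rises and falls among genes it does not name there, and nr3c1. The 15 largest of the genes called with each array left out were named as well. Genes of lists with no call are not named, and 1 gene that the rule picks is not reported here. The genes and lists were chosen with earlier results of these data known. Alternatives were other scalings, background corrections, floors, filters, probe summaries, tests, blocks and omitted arrays.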

Additional observations from a re-analysis of the deposited data

Results flagged for a closer look

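In 28 of the named genes the change of MO over MP at 36 hpf differed from that at 24 hpf by the interaction test in limma (adjusted p under 0.05), which is why they are listed here with the difference on the log2 scale, 36 hpf minus 24 hpf. In lens genes the differences were bfsp2 -2.67, crybb1l3 -2.46, crygm2b -3.52, crygm2d11 -3.85, dnase1l1l -5.70, lctla -4.73 and lim2.5 -5.03. In genes of photoreceptors, ear and neuronal precursors they were arr3a -3.23, opn1lw2 -4.38, tectb -3.29 and insm1b -1.53. In genes of muscle and fin fold, with the Hsp70 family gene hsc70, they were ankrd1b -3.26, asb10 -4.15, atp2a1l -5.37, hsc70 -4.33, tnni2b.2 -7.68 and and3 -3.07. In genes of interferon response and antigen presentation, with nfkbiaa, they were irf1b -2.69, nfkbiaa -2.31, psmb13a -2.71, tap2a -4.09 and xaf1 -2.92. The change was more positive at 36 hpf in the remaining 6, with differences of cmlc1 1.16, fech 1.93, lft2 3.34, oc90 1.31, rbp7b 2.18 and urod 1.94. The probes of asb10, crybb1l3, crygm2d11, lim2.5, opn1lw2 and tap2a stayed near background on all arrays of at least 1 of the 4 groups, so their differences are not fully measured. The cause of these differences was not tested.

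Probes without a gene name here, which enter no comparison of named genes, were tested in the fit of every probe on its own. Of 17341 such probes tested 605 were called between MO and MP at 36 hpf, 104 higher and 501 lower in MO. Over all probes of that fit 1220 of 31535 were called, a larger share, so the count is not read as a result about unnamed probes. They remain without a name, and the cause of the split was not tested.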

How the results depend on the processing

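With all 6 arrays 632 genes were called in MO against MP at 36 hpf, 188 higher and 444 lower (70.25% of calls lower). Scaling to the spike-in spots gave 129, 0 higher and 129 lower, and 97 in place of 163 genes for the difference between time points. One fit of all 12 arrays gave 1877 (813 higher, 1064 lower, 56.69% lower), array weights 1819 (776 and 1043, 57.34% lower) and 1668 for the difference, and every probe tested on its own 1220 (256 and 964). The slide as a block gave 155 (31 and 124, 80.0% lower). The replicate number as a block gave 225 (32 higher, 193 lower, 85.78% lower) and 109 for the difference, but the numbers only name the samples, as the deviations of same-numbered arrays correlated at 0.124, 0.083 and -0.238. The methods' t-test on log2 values passed 2 genes (0 higher, 2 lower) after Benjamini-Hochberg adjustment and 1811 without it, and on linear values 4 (0 higher, 4 lower) and 1712. Normexp background correction gave 435 genes (138 and 297) and 105 for the difference, and moved the median of all genes by 0.11. Leaving out 1 array gave 18 to 1129 genes, 1 to 472 higher and 17 to 657 lower, and 61 to 1607 for the difference. The 75th percentile, quantile normalization, another floor, outlier spots, other filters, the mean of probes and the authors' table gave 485 to 649. A block by scan date was not run, because at 36 hpf it does not divide the arrays beyond the slide. Of 3516 values of named genes under the alternatives 2302 kept direction and call, 1187 lost the call and 27 changed direction. Under scaling to the spike-in spots these were cdh1 -0.29, cldn7b -0.26, cmlc1 -0.20, dhrs3b -0.44, eif2b3 -0.42, emg1 -0.21, igf2a -0.063, mycb -0.42, noc2l -0.16, nop58 -0.14, nr3c1 -1.23, polr1b -0.29, polr1f -0.087, rdh10b -0.43, slc26a1 -0.21, urod -0.087 and xirp1 -0.0015. With normexp they were disp2 0.071, lgals9l1 0.13, npas4a 0.20 and pdyn 0.15, genes near background in MO. With the mean of probes they were cebpz 0.24 and nr3c1 -0.048. The uncalled nr3c1 was also -0.00052 in the authors' table, -0.021 with array weights and from -0.037 to 0.068 with 1 array left out (-0.037 without MO replicate 2, -0.0052 without MP replicate 1). Apart from these constructions the cause was not tested. The dimmer MO arrays limit what can be measured of genes low in MO, since 40 called genes were not well above background on any MO array.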
